A study of Mus musculus with 14 samples.

Results

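The clustered protocadherins are neuronal cell surface proteins of the cadherin superfamily, encoded in 3 neighbouring gene clusters named alpha, beta and gamma. The members described here were all genes whose symbol starts with Pcdha, Pcdhb or Pcdhg, which gave 58 of the 53465 genes in the deposited count tables. The alpha cluster held 14 of them (GRCm38, chromosome 18, 36930184 to 37187661), the beta cluster 22 (37264938 to 37524479) and the gamma cluster 22 (37661793 to 37841873), all on the plus strand. RNA of anterior cingulate cortex, a midline frontal region involved in affect, was sequenced in bulk of 2 inbred mouse strains, AKR/J (AKR below) and C57BL/6NJ (B6N below). The 4 groups were naive AKR (4 libraries), naive B6N (4 libraries), AKR after OFL (3 libraries) and B6N after OFL (3 libraries). OFL stands for observational fear conditioning, a procedure in which an animal sees a conspecific being shocked. The labels name no other treatment or genotype, and they give no age. Whether each library is another animal is not stated, and p-values below therefore reflect library-to-library spread only, possibly of technical origin.

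Each neuron is thought to express a small set of clustered protocadherins, and matching sets on sister branches lead to repulsion, so the family gives neurites a means of telling self from non-self. Alpha and gamma members are each made from an own first exon, which encodes the extracellular, transmembrane and proximal cytoplasmic parts, spliced to constant exons shared by the cluster; beta members are encoded in an exon of their own and have no constant exons. Most promoters of the family carry an element bound by CTCF, and CTCF, cohesin and DNA methylation take part in choosing among them, whereas the C-type members Pcdhac2, Pcdhgc4 and Pcdhgc5 and the beta member Pcdhb1 lack that element. Reads in the constant exons cannot be given to a member by counting per gene, so the bases that no other gene's exon covers stand behind most counts of alpha and gamma members. These bases were between 404 (Pcdha4) and 3028 (Pcdhac2) per alpha member and between 0 (Pcdhga10) and 4614 (Pcdhgb5) per gamma member.

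Total counts were 19073921 to 25780227 in the naive libraries and 13487311 to 14526253 in the OFL libraries, and the 58 members together held 0.0537% to 0.0591% of them in naive libraries and 0.0812% to 0.0910% in OFL libraries. Summed levels of 4 neuronal markers (Snap25, Rbfox3, Syt1 and Slc17a7) were 4744 to 5172 CPM (counts scaled to the library's total) in naive and 3740 to 3867 CPM in OFL libraries, and none of the 4 was at 0. Choroid plexus markers summed to 0.640 to 1.74 CPM and the serotonergic markers Tph2, Slc6a4 and Fev to 0.218 to 0.910 CPM, with Fev at 0 in every OFL library. In such bulk samples fewer cells of a type and less RNA per cell cannot be told apart. GRCm38 is the genome of C57BL/6J mice, and no AKR/J genome was used here.

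Of the 5 C-type members, which many neurons express together rather than by choice, 3 led their clusters: Pcdhac2 in the alpha cluster, and Pcdhgc5 and Pcdhgc3 in the gamma cluster. Levels are compared between genes per kilobase of the bases that no other gene's exon covers, in TMM-scaled CPM. Pcdhgc5, a gamma C-type known to bind GABA-A receptor subunits, stood at 25.9 ± 1.40 CPM per kb in naive AKR (SD, n = 4) and 27.0 ± 0.888 in naive B6N (SD, n = 4). Pcdhgc3, a gamma C-type that acts in dendrite branching, stood at 14.2 ± 0.905 and 13.2 ± 0.448 CPM per kb, and Pcdhac2, the alpha C-type required for the tiling of serotonergic axons, at 13.7 ± 0.796 and 12.3 ± 0.642. Pcdhgc5 thus led in both strains. These levels leave out bases under exons of either strand; if only exons of the same strand are left out, Pcdhgc3 stood at 7.65 ± 0.487 and 7.10 ± 0.241, below Pcdhac2, and the other 2 were the same.

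The remaining C-types were lower. Pcdhgc4, the gamma C-type needed for the survival of cortical interneurons, stood at 4.83 ± 0.334 CPM per kb in naive AKR and 4.38 ± 0.10 in naive B6N, near alternate members such as Pcdhga6 (4.18 ± 0.473 and 5.83 ± 0.340). Pcdhac1, the other alpha C-type, stood at 1.56 ± 0.287 and 1.28 ± 0.0437, below the alternate alpha member Pcdha12 (5.29 ± 0.809 and 3.49 ± 0.450). Averaged over both strains, the order of the alpha cluster was Pcdhac2, Pcdha12, Pcdha5 (2.19 CPM per kb) and Pcdha9 (2.09), and the last of these differed by less than their spread. In the gamma cluster Pcdhga11 (8.42 CPM per kb) followed Pcdhgc5 and Pcdhgc3, and Pcdhga6 (5.0) came next. On the bases unique on the same strand Pcdhga11 stood at 4.02 ± 0.462 in AKR and 4.0 ± 0.256 in B6N, and Pcdhga6 and Pcdhgc4 then followed Pcdhgc3 (an order computed after the data were seen; whether the counting used strand is not given in the sources used here).

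Beta levels were more even. Pcdhb17 (4.30 CPM per kb averaged over both strains), Pcdhb20 (3.81), Pcdhb9 (3.10), Pcdhb7 (2.87) and Pcdhb22 (2.63) came first, and 21 of the 22 beta members lay between 0.88 (Pcdhb4) and 4.30. Pcdhb1 was the exception, with 0 to 5 counts per library. The order within the beta cluster moved between the library sets: with OFL libraries and the bases unique on the same strand, the 3 highest were Pcdhb17, Pcdhb19 and Pcdhb16, of which 1 was among the 3 highest in naive libraries.

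**Figure D1:**
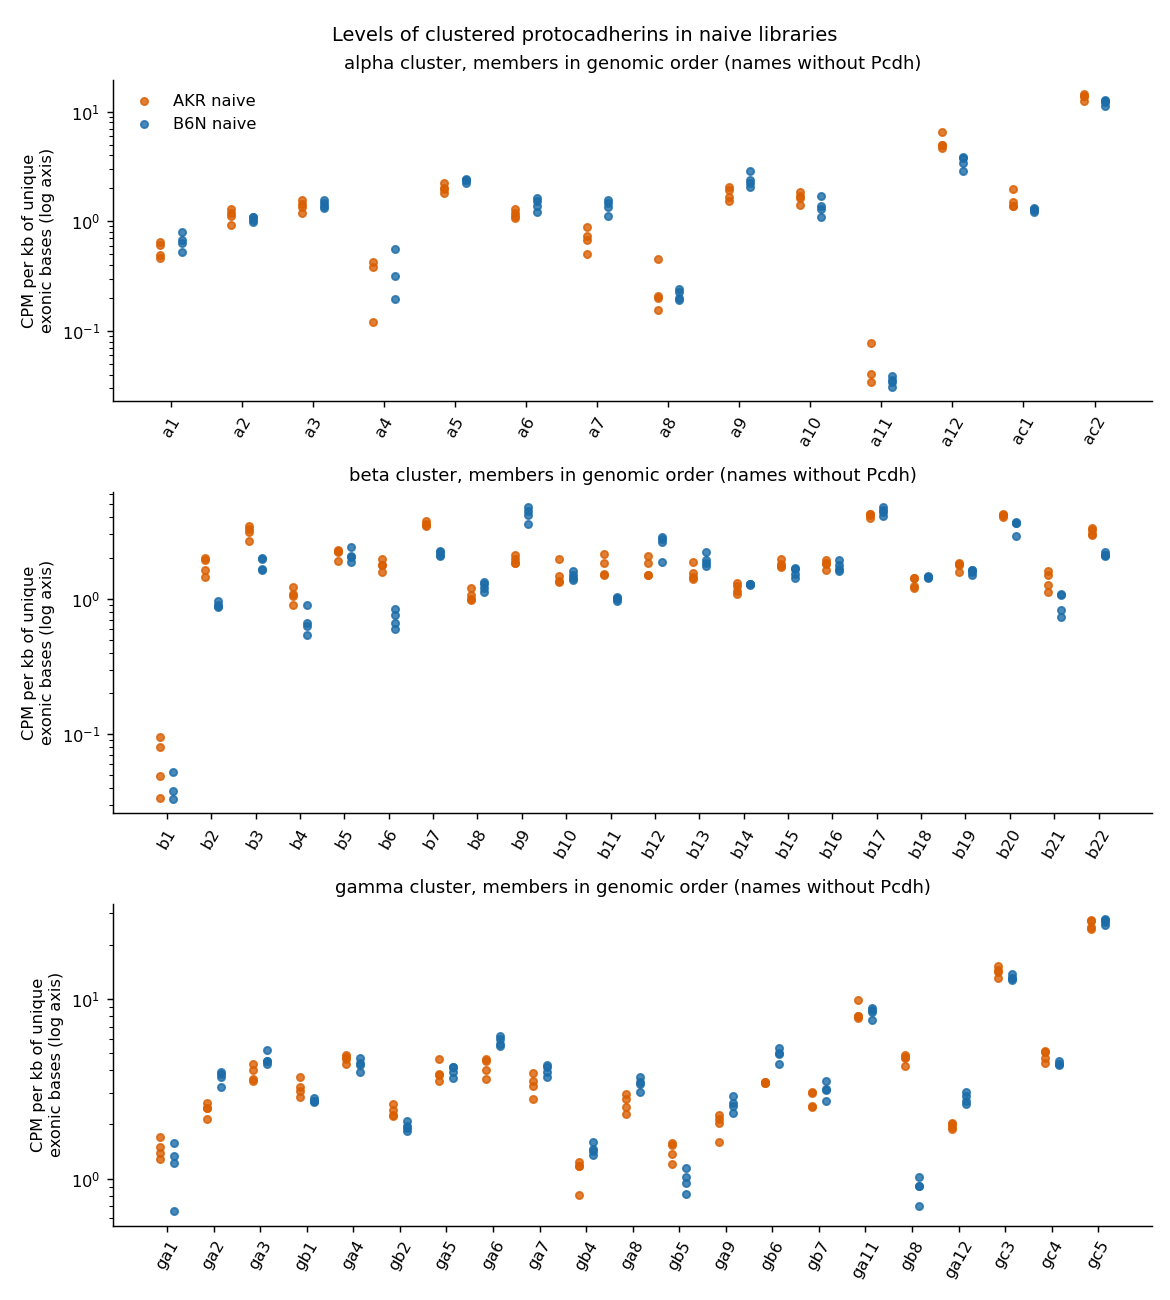
Level of each member in the 8 naive libraries, in TMM-scaled CPM per kilobase of exonic bases that no other gene covers (log axis), with members in genomic order and each point a library (orange AKR, blue B6N). Libraries with a count of 0 are not drawn, and Pcdhga10 has no such bases; Pcdhgc5, Pcdhgc3 and Pcdhac2 stand above the other members, and Pcdhb9 and Pcdhgb8 show separated strains.

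Summed over its members, the beta cluster was higher in AKR than in B6N in both sets, whereas the alpha and gamma sums lay closer together. The beta sum was 181, 174, 192 and 176 CPM in the naive AKR libraries and 160, 165, 157 and 156 CPM in naive B6N. After OFL it was 325, 322 and 327 CPM in AKR and 281, 278 and 266 CPM in B6N. All AKR libraries thus lay above all B6N libraries of the same set, by 1.13-fold on average in naive and 1.18-fold in OFL libraries.

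The gamma sum was 301 ± 6.92 CPM in naive AKR and 312 ± 5.55 in naive B6N, and 413 ± 17.2 and 423 ± 22.4 after OFL, with overlapping libraries in both sets. The alpha sum was 81.3 ± 4.76 and 76.2 ± 3.93 CPM in naive AKR and B6N, also overlapping, and 156 ± 2.79 and 147 ± 7.51 after OFL, where the AKR libraries began at 152.8 and the B6N libraries ended at 151.8. The sums are given as a description, with no test.

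Each cluster was led differently. Pcdhac2 held 51.2% ± 1.05 of the alpha sum in naive AKR and 48.7% ± 0.191 in naive B6N (SD, n = 4; shares of CPM, not corrected for length), and Pcdhgc5 held 39.6% ± 1.54 and 39.8% ± 0.789 of the gamma sum. In the naive groups 50% of the sum was reached by 1 or 2 alpha members, 3 gamma members and 6 beta members. After OFL, Pcdhac2 held 40.4% ± 1.18 in AKR and 39.6% ± 0.660 in B6N, and Pcdhgc5 21.4% ± 0.991 and 22.1% ± 0.802. The alpha sum then included Pcdha11 at 9.80% in AKR and 10.4% in B6N (0.0615% and 0.0581% in naive). The gamma sum then included Pcdhga10 at 3.10% and 3.27% (0% in naive).

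**Figure D2:**
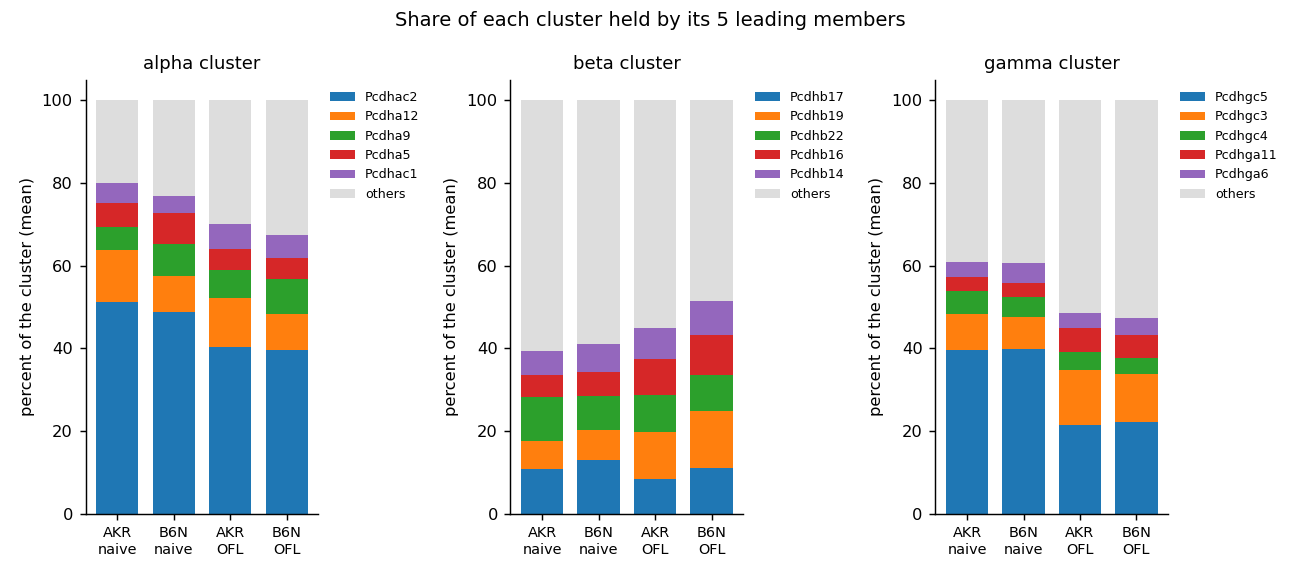
Mean share of each cluster's summed CPM held by its 5 leading members and by all others (stacked bars, percent of the cluster) in the 4 groups. The share of Pcdhgc5 in the gamma cluster is near 40% in both naive groups and near 22% in both OFL groups, and no beta member holds more than 14%.

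The first comparison asked how the strains differ at rest. Of the 58 members 54 were tested in the naive libraries, and 15 were higher and 14 lower in AKR than in B6N by edgeR's quasi-likelihood test (Benjamini-Hochberg adjusted p under 0.05). That is 53.7% of those tested, beside 37.8% of the 17645 genes tested. The libraries of the strains did not overlap for 27 members, beside 34.7% of all genes. The median absolute log2 difference was 0.27 over the members and 0.15 over all genes, and 3 members were called at 2-fold or more, beside 4.6% of all genes. The median signed difference was 0.04 over the members and 0.01 over all genes. Pcdha4, Pcdha11, Pcdhb1 and Pcdhga10 had too few counts to be tested.

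Direction differed between the clusters. Of 21 beta members tested, 9 were higher and 3 lower in AKR, beside 18.3% of all genes called higher and 19.5% called lower. Of 21 gamma members, 4 were higher and 9 lower, and of 12 alpha members, 2 were higher and 2 lower. The median log2 difference was 0.14 in the beta, -0.05 in the gamma and 0.03 in the alpha cluster.

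The second comparison set the same strains side by side after OFL, in other libraries. Of 56 members tested, 11 were higher and 4 lower in AKR, which is 26.8%, beside 16.4% of the 17994 genes tested (7.5% called higher and 8.86% called lower). The libraries did not overlap for 27 members, beside 31.2% of all genes, and 5 members were called at 2-fold or more, beside 3.46%. The beta cluster held 10 of these 15 calls, with 9 higher and 1 lower of 21, while the gamma cluster had 1 higher and 3 lower of 22 and the alpha cluster 1 higher and 0 lower of 13.

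Of the 54 members tested in both sets, 43 had the same sign in both. The 14 members called in both had the same direction in both, 10 higher and 4 lower in AKR, and they made up 48.3% of the naive calls and 93.3% of the OFL calls. Over all 15915 genes tested in both sets 68.3% had the same sign, beside 79.6% of the members, and 2041 were called in both with the same direction, 32.9% of the naive and 74.2% of the OFL calls. The differences correlated across members with Pearson's r of 0.85 and Spearman's rho of 0.76 and over all genes with 0.84 and 0.53 (genes are not independent replicates; the strains, tissue and reference genome were shared, the libraries were not).

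**Figure D3:**
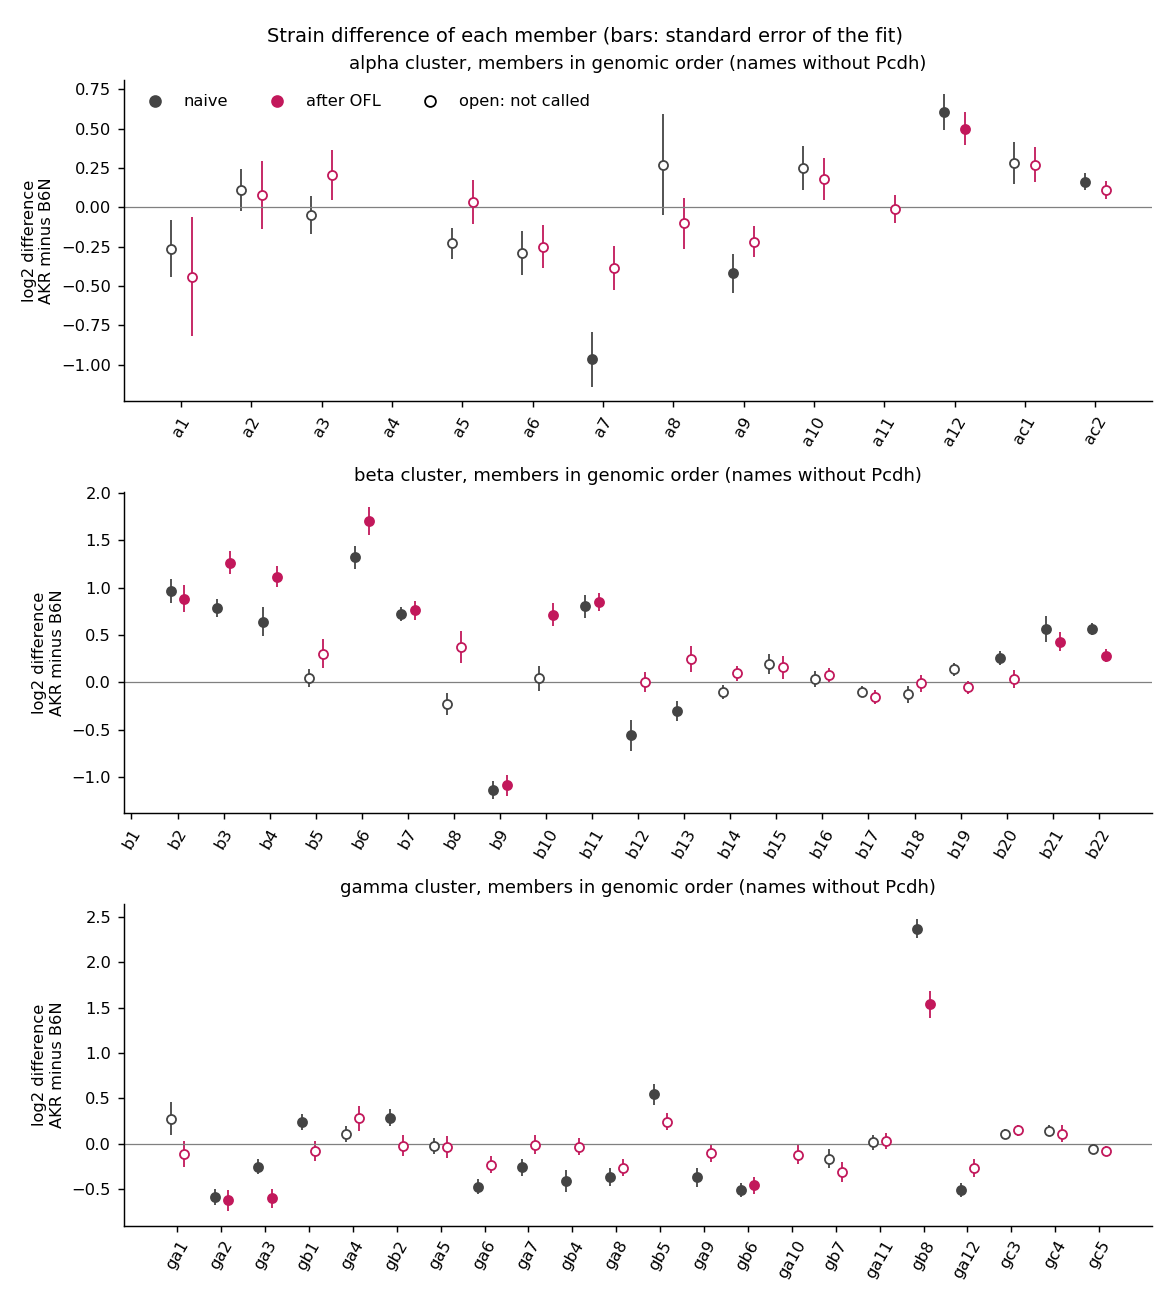
Log2 difference between AKR and B6N for each tested member in naive libraries (grey) and OFL libraries (magenta), with members in genomic order; bars are standard errors of the fit and filled points passed an adjusted p of 0.05. Pcdhgb8 and Pcdhb6 are the highest and Pcdhb9 the lowest in both sets. The 6 beta members from Pcdhb14 to Pcdhb19, a run marked out by these same calls, have no filled point.

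The largest difference of the family in naive libraries was that of Pcdhgb8, a gamma-B member that the annotation lists as a polymorphic pseudogene. Its level was 11.8, 10.5, 11.7 and 12.2 CPM in the naive AKR libraries and 2.56, 1.75, 2.27 and 2.28 CPM in naive B6N. After OFL it was 18.8, 14 and 16.7 CPM in AKR and 7.27, 5.11 and 4.53 CPM in B6N. The strains were separated in both sets, with log2 differences of 2.37 in naive (SE 0.11, adjusted p = 1.7e-11, edgeR) and 1.53 in OFL libraries (SE 0.15, adjusted p = 2.3e-07). Of its 50-base stretches, 9.18% also occur in another gene, most often Pcdhgb1, and of its 100-base stretches 4.71% do. Reads that lie wholly within such stretches may not be told apart.

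Among the beta members, which carry the same kind of recognition domains but no constant cytoplasmic part, Pcdhb6 differed most in both sets, and after OFL it differed more than Pcdhgb8. It stood at 6.64, 7.42, 6.63 and 5.97 CPM in naive AKR and at 2.83, 3.15, 2.47 and 2.23 CPM in naive B6N. After OFL it stood at 10.5, 9.82 and 10.5 CPM in AKR and at 3.91, 2.87 and 2.55 CPM in B6N. Every AKR library was above every B6N library of either set, and the log2 difference was 1.32 in naive (SE 0.12, adjusted p = 1.6e-07) and 1.71 in OFL libraries (SE 0.15, adjusted p = 6.0e-08; edgeR).

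Pcdhb3 was also higher in AKR, and after OFL it differed most among the beta members apart from Pcdhb6. Naive AKR libraries held 13.2, 10.1, 12.5 and 11.7 CPM and naive B6N libraries 6.33, 7.60, 7.46 and 6.22 CPM. After OFL the values were 12.2, 10.9 and 11.9 CPM in AKR and 4.60, 4.76 and 5.10 CPM in B6N. The strains did not overlap, and the log2 difference was 0.78 in naive (SE 0.10, adjusted p = 6.0e-06) and 1.26 in OFL libraries (SE 0.12, adjusted p = 2.1e-07; edgeR).

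Pcdhb7, 1 of the 4 highest beta members per kilobase, showed nearly the same difference in both sets. It stood at 12.1, 12.4, 13.2 and 12.3 CPM in naive AKR against 7.75, 7.24, 7.41 and 7.94 CPM in naive B6N. After OFL it stood at 14.2, 13.6 and 14.4 CPM in AKR against 8.92, 8.12 and 7.72 CPM in B6N. The log2 difference was 0.72 (SE 0.07, adjusted p = 3.9e-07) in naive and 0.76 (SE 0.10, adjusted p = 2.3e-05) in OFL libraries by edgeR, with no overlap.

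Pcdhb9 went the other way and was the lowest of the family in AKR relative to B6N. Naive AKR libraries held 5.66, 6.44, 5.59 and 5.97 CPM, and naive B6N libraries 13.7, 14.7, 10.9 and 12.8 CPM. After OFL the values were 7.19, 5.92 and 5.90 CPM in AKR and 13.6, 13.6 and 12.9 CPM in B6N. The groups were far apart in both sets, with log2 differences of -1.14 (SE 0.10, adjusted p = 5.0e-08) and -1.09 (SE 0.11, adjusted p = 7.5e-07) by edgeR. Pcdhb7 and Pcdhb9 each share more 50-base stretches with the other than with any further gene (8.57% and 8.75% of their stretches occur elsewhere), and they differed between the strains in opposite directions.

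Pcdhb22, at the downstream end of the beta cluster, held 18.3, 18.7, 20.4 and 19.9 CPM in naive AKR against 13.7, 12.9, 13.0 and 12.8 CPM in naive B6N. After OFL it held 27.9, 29.9 and 29.3 CPM in AKR and 23.2, 23.7 and 24.6 CPM in B6N. AKR was above B6N in both sets without overlap, by 0.56 on the log2 scale in naive (SE 0.06, adjusted p = 1.2e-06) and 0.28 in OFL libraries (SE 0.07, adjusted p = 0.0095; edgeR). The OFL call was lost without B6N OFL replicate 2 (adjusted p = 0.051) and with DESeq2 (adjusted p = 0.056).

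The other beta members called in both sets were Pcdhb2, Pcdhb4, Pcdhb11 and Pcdhb21, each higher in AKR, with log2 differences of 0.43 to 0.96 in naive and OFL libraries except Pcdhb4 after OFL, at 1.11. Pcdhb12 (-0.56) and Pcdhb13 (-0.30) were lower and Pcdhb20 (0.26) higher in AKR in the naive set, and did not pass the test after OFL (0.00, 0.25 and 0.03). Pcdhb20, with 14.8, 14.7, 15.1 and 14.4 CPM in naive AKR, stood at 10.5, 13.0, 12.9 and 13.1 CPM in naive B6N; without the low library, B6N naive replicate 1, the log2 difference was 0.18 (adjusted p = 0.046, edgeR). The call of Pcdhb13 was lost with DESeq2, with the replicate block and without AKR naive replicate 1, 2 or 4 or B6N naive replicate 1 or 2 (adjusted p up to 0.10).

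Pcdhb17, the highest beta member per kilobase, did not differ beyond its spread. It stood at 18.4, 19.3, 19.9 and 19.8 CPM in naive AKR and 20.6, 19.1, 22.4 and 21 CPM in naive B6N, and at 25, 29.9 and 27.1 against 31.1, 30.7 and 29.1 CPM after OFL. The libraries overlapped in both sets, with log2 differences of -0.10 (SE 0.06) and -0.16 (SE 0.08). It lies in a run of neighbours, Pcdhb14 to Pcdhb19, of which none was called in either set and whose log2 differences ran from -0.16 to 0.19. The run was marked out by these same calls, and it was not tested as a block. Of all genes, 37.8% were called in naive and 16.4% in OFL libraries, so most genes were not called either. The calls of both sets lay on either side of the run, between Pcdhb2 and Pcdhb11 and at Pcdhb21 and Pcdhb22. Pcdhb5 and Pcdhb8, between Pcdhb2 and Pcdhb11, were not called in either set.

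**Figure D4:**
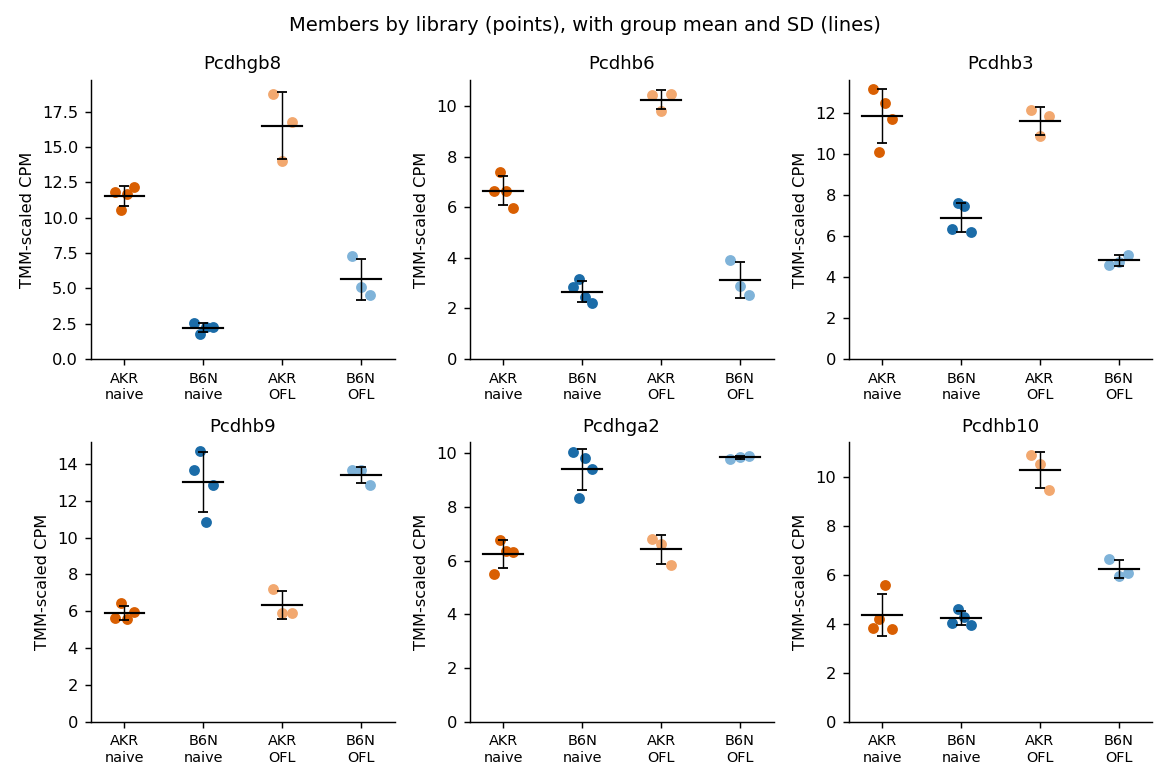
TMM-scaled CPM of 6 members in every library (points), with the mean and SD of each group (lines), from 0 upwards. Pcdhgb8, Pcdhb6 and Pcdhb3 are higher in AKR and Pcdhb9 and Pcdhga2 lower in both sets, while Pcdhb10 overlaps in naive libraries and is separated after OFL.

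Alternate members of the gamma cluster encode proteins with the shared gamma cytoplasmic domain. Of the 18 tested in naive libraries 9 were lower and 4 higher in AKR, and of the 19 tested after OFL 3 were lower and 1 higher. Pcdhga2 stood at 5.51, 6.78, 6.37 and 6.32 CPM in naive AKR and at 10.1, 8.32, 9.83 and 9.40 CPM in naive B6N. After OFL it stood at 6.82, 6.62 and 5.82 against 9.81, 9.87 and 9.91 CPM. All AKR libraries were below all B6N libraries, with log2 differences of -0.59 (SE 0.09, adjusted p = 6.3e-05) and -0.63 (SE 0.12, adjusted p = 0.00069) by edgeR.

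Pcdhgb6 stood at 8.86, 8.77, 8.76 and 8.87 CPM in naive AKR and at 12.8, 12.7, 11.1 and 13.7 CPM in naive B6N. After OFL it stood at 14.7, 13.7 and 15.3 against 21.7, 17.9 and 20.0 CPM. The strains were again separated, by -0.51 (SE 0.08, adjusted p = 3.9e-05) and -0.46 (SE 0.09, adjusted p = 0.0015) on the log2 scale by edgeR.

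Pcdhga3 was at 9.35, 11.3, 9.07 and 10.5 CPM in naive AKR and 11.8, 11.7, 13.4 and 11.3 CPM in naive B6N, which met without crossing. After OFL the values were 11.3, 10.3 and 10.4 against 17.8, 14.4 and 16.2 CPM, with a wide gap. The log2 difference was -0.25 in naive (SE 0.08, adjusted p = 0.023) and -0.60 in OFL libraries (SE 0.10, adjusted p = 0.00029; edgeR). The naive call was lost with DESeq2 (adjusted p = 0.050103) and without AKR naive replicate 1, AKR naive replicate 3 or B6N naive replicate 3 (adjusted p of 0.065, 0.075 and 0.087).

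A further 9 gamma members were called in naive libraries and not after OFL. Pcdhga6, Pcdhga7, Pcdhgb4, Pcdhga8, Pcdhga9 and Pcdhga12 were lower in AKR, from -0.51 for Pcdhga12 to -0.26 for Pcdhga7, and Pcdhgb1, Pcdhgb2 and Pcdhgb5 were higher (0.24, 0.29 and 0.54). After OFL the same 9 ranged from -0.27 (Pcdhga8 and Pcdhga12) to 0.24 (Pcdhgb5). With DESeq2 the naive calls of Pcdhgb1, Pcdhgb2 and Pcdhga7 were lost, and that of Pcdhgb1 also with no count filter and with the replicate block. The naive call of Pcdhgb4 was lost without AKR naive replicate 2 (log2 difference -0.28, adjusted p = 0.053, edgeR), that of Pcdhgb1 without AKR naive replicate 3 or 4 or any B6N naive library, that of Pcdhgb2 without AKR naive replicate 2 or B6N naive replicate 1 or 2, and that of Pcdhga7 without AKR naive replicate 1 or 2 or B6N naive replicate 1, 3 or 4. After OFL, Pcdhga12 passed without AKR OFL replicate 3 or B6N OFL replicate 3, and Pcdhgb5 without AKR OFL replicate 2. Whether the strain difference of any of these members itself differed between the sets is given by the interaction below, where none of the 9 passed.

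Of the gamma C-types none was called between the strains. Pcdhgc5 held 112, 126, 124 and 116 CPM in naive AKR and 128, 119, 126 and 124 CPM in naive B6N, and 88.2, 82.7 and 94.6 against 95.5, 92.1 and 92.7 CPM after OFL. Pcdhgc3 held 27.7, 23.7, 25.6 and 26.4 against 23.2, 23.9, 23.7 and 25.2 CPM, and 56.7, 53.5 and 56.8 against 53.4, 49.6 and 47.1 CPM after OFL. Pcdhgc4 held 15.4, 16.4, 17.8 and 17.7 against 15.1, 15.2, 15.8 and 15 CPM, and 18, 17.9 and 17.0 against 18.2, 15.6 and 14.9 CPM after OFL. The libraries of the strains overlapped, save for Pcdhgc3 after OFL, and the log2 differences were -0.05 (SE 0.04) and -0.09 (SE 0.06) for Pcdhgc5, 0.11 (SE 0.06) and 0.14 (SE 0.06) for Pcdhgc3 and 0.14 (SE 0.06) and 0.11 (SE 0.09) for Pcdhgc4. Pcdhgc3 passed the test in naive libraries without AKR naive replicate 2 (adjusted p = 0.039) and in OFL libraries without B6N OFL replicate 1 (adjusted p = 0.040), and Pcdhgc4 without AKR naive replicate 1 (adjusted p = 0.032; edgeR).

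In the alpha cluster Pcdha12, the highest alternate member per kilobase, was called in both sets. Naive AKR libraries held 9.05, 12.6, 9.74 and 9.73 CPM and naive B6N libraries 6.61, 5.62, 7.41 and 7.51 CPM. After OFL the values were 19.2, 17.4 and 18.4 CPM in AKR and 14.3, 13.9 and 10.4 CPM in B6N. AKR was above B6N without overlap, by 0.61 in naive (SE 0.11, adjusted p = 0.00036) and 0.50 in OFL libraries (SE 0.11, adjusted p = 0.0023) on the log2 scale by edgeR.

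Pcdhac2 held 38.1, 42.3, 42.4 and 43.7 CPM in naive AKR and 39.2, 34.5, 37.3 and 37.7 CPM in naive B6N, and 66.0, 60.2 and 62.7 against 59.0, 59.3 and 55.5 CPM after OFL. The naive libraries overlapped, and the call there was small, with a log2 difference of 0.16 (SE 0.05, adjusted p = 0.018, edgeR), against 0.11 (SE 0.06, adjusted p = 0.22) after OFL. It was lost without AKR naive replicate 4 or B6N naive replicate 2 (adjusted p of 0.061 and 0.058). Pcdhac1 held 3.54, 3.52, 5.08 and 3.85 CPM in naive AKR and 3.26, 3.28, 3.41 and 3.13 CPM in naive B6N, and 10.2, 10.1 and 8.88 against 8.16, 8.12 and 7.72 CPM after OFL. It was not called although the libraries did not overlap (0.28, SE 0.13, and 0.27, SE 0.11, on the log2 scale).

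Pcdha7 and Pcdha9 were lower in naive AKR. Pcdha7 stood at 1.08, 1.91, 1.45 and 1.56 CPM in AKR and at 3.34, 2.38, 2.91 and 3.18 CPM in B6N, with a log2 difference of -0.97 (SE 0.17, adjusted p = 0.00026, edgeR). After OFL it was -0.38 (SE 0.14, adjusted p = 0.070), and it passed without B6N OFL replicate 2 (adjusted p = 0.043). For Pcdha9 the differences were -0.42 (SE 0.12, adjusted p = 0.013), lost without B6N naive replicate 1 (adjusted p = 0.064), and -0.22 after OFL. Of the 50-base stretches of Pcdha7, 25.5% occur in another gene, so that part of its reads may not be assigned.

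The interaction, the change from naive to OFL in AKR minus that in B6N, tests whether a strain difference itself differed between the sets. It passed for 2 of 56 members, 3.57%, beside 5.15% of the 20291 genes tested (3.61% called higher and 1.54% called lower). No member reached 2-fold in it, beside 0.976% of all genes. Pcdhb10 was the member that was higher, at 3.84, 4.20, 5.59 and 3.81 CPM in naive AKR and 4.05, 4.59, 4.30 and 3.95 CPM in naive B6N, and at 10.9, 10.5 and 9.46 against 6.65, 5.95 and 6.09 CPM after OFL. The strains overlapped in naive and were separated in OFL libraries, with an interaction of 0.68 (SE 0.18, adjusted p = 0.020, edgeR). It was lost without AKR OFL replicate 1 (0.64, adjusted p = 0.059) or B6N OFL replicate 2 (0.65, adjusted p = 0.059).

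Pcdhgb8 was the member that was lower, with an interaction of -0.83 (SE 0.20, adjusted p = 0.013, edgeR). Its level was higher after OFL in both strains, by 0.52 in AKR (SE 0.11) and 1.34 in B6N (SE 0.17) on the log2 scale, so that the strains lay closer together on that scale. In CPM the gap was not smaller. The means of AKR and B6N were 11.5 and 2.21 CPM in naive and 16.5 and 5.64 CPM in OFL libraries. Without B6N OFL replicate 1, the highest B6N library, the interaction was -0.60 (adjusted p = 0.086). Of the other members, Pcdhb3, Pcdhb8, Pcdhb12 and Pcdhb13 passed when particular libraries were left out: Pcdhb3 without AKR naive replicate 1, Pcdhb12 without B6N naive replicate 3, Pcdhb8 without AKR OFL replicate 2, and Pcdhb13 without AKR naive replicate 3 or AKR OFL replicate 2.

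The comparison of OFL with naive libraries asks what differed after observational fear conditioning. The 2 sets differed in most genes (78.7% of those tested were called in AKR and 78.4% in B6N), and condition and library set cannot be told apart. Of 56 members tested, 44 were higher and 2 lower in AKR, 82.1%, and 41 were higher and 3 lower in B6N, 78.6%, shares near those of all genes. Pcdhga10 and Pcdha11, with 0 to 2 counts per naive library, passed the filter only through the OFL libraries; without them 42 were higher and 2 lower of 54 in AKR and 39 and 3 in B6N. Most of the members' calls were to the higher side, beside 39.8% of all genes called higher and 38.8% called lower in AKR and 40% and 38.4% in B6N. The libraries of the sets did not overlap for 45 of the 56 members in AKR and 44 in B6N, shares near the 76.7% of all genes in either strain. Pcdhga10 and Pcdha11 are among these in both strains. The median log2 difference was 0.81 in AKR and 0.79 in B6N, beside -0.01 and 0.00 over all genes (0.76 and 0.69 without Pcdhga10 and Pcdha11). The sums over all members of a cluster were higher too. The alpha sum was 1.92-fold higher in both strains. The beta sum was 1.80-fold higher in AKR and 1.73-fold in B6N, and the gamma sum 1.37-fold and 1.36-fold. The alpha sum includes Pcdha11, at a mean of 15.3 CPM in either OFL group, 0.0484 in naive AKR and 0.0442 in naive B6N. The gamma sum includes Pcdhga10, at 12.8 CPM in AKR OFL, 13.9 in B6N OFL and 0 in naive libraries.

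Markers of other cell types also differed between the sets, in the same scale. Beside the lower neuronal sum given above, the summed levels over both strains were 563 to 660 CPM in naive and 414 to 488 CPM in OFL libraries for GABAergic neurons, 1171 to 1646 and 772 to 1138 CPM for oligodendrocytes, and 182 to 230 and 138 to 155 CPM for microglia. Astrocyte markers stood at 778 to 915 and 676 to 742 CPM, and endothelial markers at 148 to 171 and 111 to 129 CPM. These sums were lower in every OFL library than in every naive library of both strains. By single marker, the group mean in AKR was lower in OFL libraries for all markers in these sums. In B6N it was higher for Syt1, Aqp4 and P2ry12 and lower for the rest. Oligodendrocyte precursor markers stood higher in OFL libraries within each strain, at 102 to 112 and 114 to 123 CPM in AKR and at 93.2 to 106 and 109 to 112 CPM in B6N. Their part in the members' differences was not tested.

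The C-types did not move together. Pcdhgc5 was lower in OFL than in naive libraries without overlap, by -0.43 in AKR (SE 0.05, adjusted p = 9.8e-09) and -0.41 in B6N (SE 0.05, adjusted p = 2.0e-08) on the log2 scale by edgeR. Pcdhgc4 differed by 0.07 (SE 0.08) and 0.09 (SE 0.08) and was not called. Pcdhgc3, Pcdhac1 and Pcdhac2 were higher, by 1.11, 1.29 and 0.60 in AKR and 1.06, 1.29 and 0.64 in B6N, all with an SE of at most 0.12; 46.1% of the own bases of Pcdhgc3, and none of the other 2, lie under exons of the other strand. With the libraries scaled over protein-coding genes, which moved the median of all genes by over 0.1, Pcdhgc4 was called higher in both strains (adjusted p of 0.026 in AKR and 0.015 in B6N), and Pcdhgc5 stayed lower.

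Pcdha1 was also lower, from 1.23, 1.14, 1.61 and 1.51 CPM in naive AKR to 1.04, 0.627 and 0.509 CPM after OFL, lower by a log2 difference of -0.92 (SE 0.30, adjusted p = 0.0079, edgeR). In B6N it was -0.75 (SE 0.27, adjusted p = 0.013). These calls rest on 7 to 46 counts per library, and they were lost without AKR OFL replicate 3 (adjusted p = 0.056) and, in B6N, without B6N OFL replicate 3 (adjusted p = 0.14) or with DESeq2. Pcdhb3 was lower in B6N (-0.51, SE 0.13, adjusted p = 0.00059) and not called in AKR (-0.03, SE 0.10).

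The largest differences were those of Pcdhga10 and Pcdha11, whose own bases lie wholly or mostly under exons of genes on the other strand. Next in both strains came Pcdha8, with none of its own bases under such exons. Members under such exons were chosen for description after their values were seen. Pcdhga10, whose own bases all lie under such exons, had 0 counts in each of the 8 naive libraries and 186, 162 and 184 counts in AKR and 221, 195 and 181 in B6N after OFL. Against a floor of 3 counts per library its counted level was at least 82.5-fold higher in AKR and at least 93.7-fold higher in B6N. The floor covers counting error only. No base of this member is free of other genes' exons on both strands, so these folds do not bound a change in its RNA. Pcdha11, with 72.5% of its own bases under the other strand's exons, had 0 to 2 counts per naive library and 205 to 238 per OFL library.

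Pcdhb12 (63.5% under the other strand) was higher by 2.56 in AKR and 1.99 in B6N, and Pcdhga11 (52.4%) by 1.16 and 1.13. The groups by share were formed after the values were seen. Of all genes tested, 39.8% were called higher and 38.8% lower in AKR, and 40% and 38.4% in B6N. The 8 members with a share above 0 and under 50% were all called higher in both strains, with a median log2 change of 0.88 in AKR and of 1.03 in B6N. The 44 members with none of their own bases under the other strand had a median of 0.59 in AKR (32 higher, 2 lower) and 0.56 in B6N (29 higher, 3 lower). Among those 44, Pcdha8 was the highest, from 0.492, 0.381, 0.518 and 1.12 CPM in naive AKR to 4.30, 3.41 and 4.80 CPM after OFL, with log2 differences of 2.7 (SE 0.23) in AKR and, in B6N, 3.06 (SE 0.24). The part that strand-blind counting may have in these differences was not tested, and the strand setting of the counting is not given in the sources used here.

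**Figure D5:**
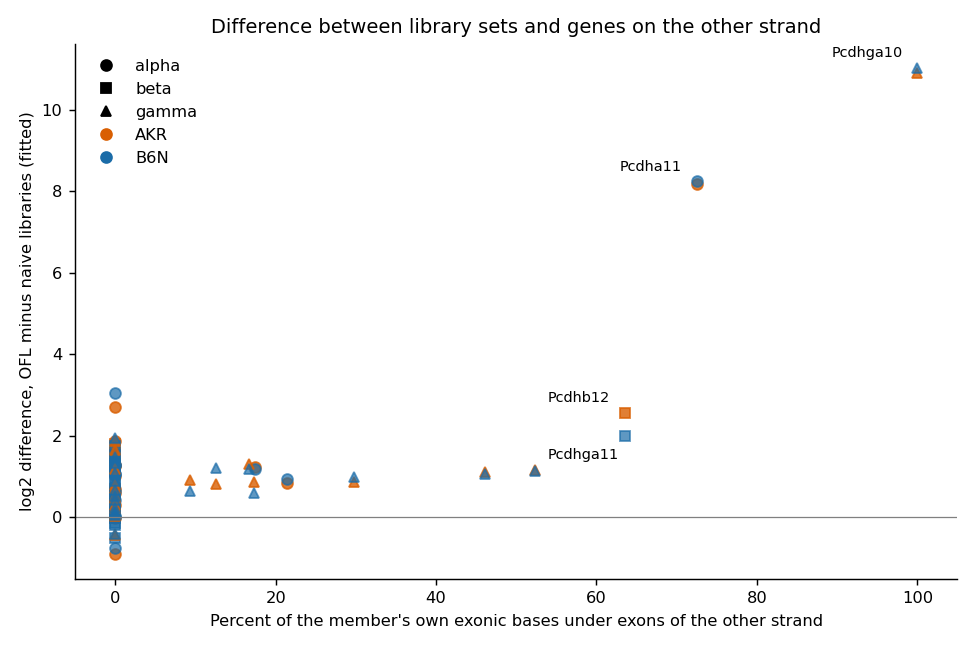
Log2 difference between OFL and naive libraries (fitted, vertical axis) against the percent of each member's own exonic bases that lie under exons of the other strand (horizontal axis), in AKR (orange) and B6N (blue), for the 56 tested members. Pcdha11 and Pcdhga10, with 0 to 2 counts per naive library, stand far above the rest; their fitted values depend on the prior count and are not bounds.

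The genes that act with the family were read in lists of their own, and no test compares a list with all genes. The counts of each list between the strains stand beside these shares. Of all genes tested, 18.3% were called higher and 19.5% lower in naive AKR than in naive B6N, and 7.5% and 8.86% after OFL. Of 11 genes of CTCF, cohesin and its loaders, which fold the clusters and bring enhancers to the chosen promoters, 2 were higher and 1 lower in naive AKR, and 1 was higher after OFL. Pds5b, a cohesin regulator, was higher in both sets, by 0.19 (SE 0.04, adjusted p = 0.00045) and 0.19 (SE 0.04, adjusted p = 0.0052) on the log2 scale by edgeR. Rad21, a cohesin subunit, was higher by 0.13 and Nipbl, the cohesin loader, lower by -0.14 in naive libraries. Ctcf itself differed by -0.02 (SE 0.04).

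Of 14 genes of DNA methylation and chromatin, 5 were higher and 4 lower in naive AKR and 2 were higher after OFL. Dnmt3b, the methyltransferase that marks promoters of the clusters in the embryo, was higher in AKR by 0.74 (SE 0.18, adjusted p = 0.0031) in naive and 1.34 (SE 0.23, adjusted p = 0.00033) in OFL libraries by edgeR. Smchd1, a chromatin protein that acts on the clusters, was lower in naive AKR by -0.16 (SE 0.04), and Tet3, which oxidises methylated cytosine, by -0.45 (SE 0.07). Wiz, a partner of histone methyltransferases known to act on protocadherin genes, was higher by 0.11 in naive and 0.46 in OFL libraries.

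Of 14 intracellular partners, 1 was higher and 3 lower in naive AKR. The kinases Ptk2 and Ptk2b, which the constant domains inhibit, were lower by -0.26 (SE 0.03) and -0.22 (SE 0.04), and Marcks, an actin-binding protein downstream of the gamma cluster, by -0.13 (SE 0.04). After OFL 1 was higher and 2 lower, with Ptk2b at -0.12 and Marcks at -0.19. Of 6 proteases that release protocadherin fragments, 1 was higher (Aph1a, 0.20) and 1 lower (Ncstn, -0.18) in naive AKR, and 1 lower (Psen2, -0.32) after OFL.

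Of 12 non-clustered protocadherins, 4 were higher and 2 lower in naive AKR, and 1 higher and 2 lower of 11 tested after OFL. Pcdh11x was higher in both sets (0.54, SE 0.07, and 0.33, SE 0.06) and Pcdh19 lower in both (-0.24, SE 0.05, and -0.26, SE 0.06). Of 8 other recognition molecules of neurites, 3 were higher and 4 lower in naive AKR, and 2 higher and 0 lower after OFL, with Nlgn2, an adhesion protein of inhibitory synapses, higher in both (0.18 and 0.29). The list medians lay between -0.09 and 0.10 in both strain comparisons.

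Between the library sets the lists were counted in the same way, beside 39.8% of all genes called higher and 38.8% called lower in AKR, and 40% and 38.4% in B6N. No test compares the lists. In AKR, 8 of 11 CTCF and cohesin genes were higher and 2 lower in OFL libraries, 11 of 14 methylation and chromatin genes were higher and 2 lower, and 9 of 12 non-clustered protocadherins were higher and 2 lower, with medians of 0.65, 0.57 and 0.66. Of the 8 other recognition molecules 7 were higher and 1 lower (median 0.47), of the 14 intracellular partners 5 were higher and 7 lower (median -0.12), and of the 6 proteases 1 was higher and 5 lower (median -0.46). In B6N the counts, in the same order, were 8 and 0, 10 and 2, 9 and 2, 6 and 2, 5 and 6, and 1 and 5, with medians of 0.64, 0.45, 0.63, 0.41, 0.00 and -0.41. Stag1 had the smallest p in the first list (1.26 in both strains), Smchd1 in the second (1.22 and 1.16), and Pcdh7 in the third (1.72 and 1.69).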

How the data were processed

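RNA of anterior cingulate cortex was counted in 14 libraries in 4 groups, which the labels give. Per the submitters' processing notes, tools included TopHat2 2.1.1, cutadapt 2.7, CASAVA, edgeR and HTSeq, and the build was GRCm38; the annotation release and the strand setting are not given in the sources used here. The authors deposited raw counts per Ensembl gene, 1 table for naive and 1 for OFL libraries, and these were tested. The deposited CPM values, scaled by the authors, gave whole reads for 100% of values (tolerance 0.1 read), and 0 genes differed from the count tables; a fit of the recovered reads called 15 and 14 members in the naive comparison, as the count tables did.

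GENCODE M21 (GRCm38) named 53360 of the 53465 identifiers. The symbol Pcdha11 stood at 2 identifiers; ENSMUSG00000007440, which RefSeq names Pcdha10, is called Pcdha10 here and ENSMUSG00000102206 Pcdha11. Exonic bases and stretches of 50 bases shared with other genes came from the same annotation and genome. Differences were tested with edgeR 4.0.16 (R 4.3.3, limma 3.58.1): expression filter by group, TMM scaling, two-sided quasi-likelihood F-test, Benjamini-Hochberg adjustment over all genes tested, threshold 0.05. Strain differences were fitted within each set, the OFL minus naive differences and the interaction in 1 fit of 14 libraries. edgeR's common coefficient of biological variation came to 0.0446 (naive), 0.0456 (OFL) and 0.0450 (both sets). The floor of a count of 0 was taken as 3 counts, for counting error only. The fits were tested on simulated data.

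The members, lists and tests were chosen with earlier results of these data known. Values in every library are given for the C-types, the 2 members of each cluster highest per kilobase in naive libraries, and members called in both strain comparisons or in the interaction (up to 5 per cluster, by smallest p); list genes were named by smallest p. Alternatives were DESeq2 1.42.0, other scalings, other count filters (among them 1 CPM), the recovered reads, a replicate block, 1 fit of all libraries and leaving out each library. No sequences are printed.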

Additional observations from a re-analysis of the deposited data

Results flagged for a closer look

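In 108 pairs of a member and a naive group, 1 library stood apart from the other 3 in 4 pairs, by a criterion that chance meets in about 1 of 20 groups. Pcdha5 was low in B6N naive replicate 1 (5.27 CPM, the others 5.62 to 5.68), and so was Pcdhb20 (10.5 CPM, the others 12.9 to 13.1). In AKR naive replicate 2, Pcdhgb4 was low (2.92 CPM, the others 4.20 to 4.43) and Pcdhga11 high (12.4 CPM, the others 9.84 to 10.1).

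The strain difference itself differed between naive and OFL libraries for 2 members by the interaction test of edgeR: Pcdhb10, at 0.68, and Pcdhgb8, at -0.83 on the log2 scale. Condition and library set cannot be told apart in either.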

How the results depend on the processing

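No member called in the main fit reversed its direction in that comparison under any alternative run that tested it. Changes of sign were not counted for members not called in the main fit. In the strain comparisons every count of members called stayed within 1.5 times the values above: leaving out each library gave 12 to 16 higher and 11 to 13 lower in naive and 10 to 13 higher and 4 to 5 lower in OFL libraries, and DESeq2 gave 13, 11, 10 and 4. For OFL minus naive, leaving out each library gave 41 to 44 higher and 1 to 2 lower in AKR and 40 to 42 and 2 to 3 in B6N, the 1 without AKR OFL replicate 3. The interaction gave 2 higher with no count filter (the second was Pcdhb13), 0 to 3 higher when each library was left out (0 without AKR OFL replicate 1 or B6N OFL replicate 2, 3 without AKR OFL replicate 2) and 0 to 1 lower (0 without B6N OFL replicate 1). The cause was not tested.

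Scaling over protein-coding genes raised the OFL sums: in AKR to 171 (alpha), 357 (beta) and 454 CPM (gamma), in B6N to 161, 302 and 464 CPM. It moved the median of all genes from -0.01 to 0.11 in AKR and from 0.00 to 0.11 in B6N, with members called at 46 higher and 2 lower, and 43 and 3.

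No pairing by replicate number was seen: same-numbered libraries correlated in their deviations at r of -0.07 to 0.04 in naive and -0.01 to 0.06 in OFL libraries. Differently numbered libraries correlated at -0.04 to 0.05 and -0.08 to 0.06. With so few pairs a weak pairing would not show. With the replicate block 14 members were higher and 13 lower in naive, 11 and 4 in OFL libraries, 44 and 2 in AKR, 41 and 3 in B6N, and 1 and 1 in the interaction. Low counts left Pcdha4 (at most 6 counts per library) and Pcdhb1 (at most 5) untested in every comparison. Pcdha11 (0 to 2 counts) and Pcdhga10 (0 counts) were untested in naive libraries, although these had the higher total counts.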
